A study of Mus musculus with 4 samples.

Results

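Npb, Mas1, Inpp5j, Lrrc14b, Slc13a4 and Fkbp7 are 6 genes of signalling, transport and protein folding that were chosen by their liver signal, which was higher in mice lacking NIPP1 than in control mice. They were found by gene name in the array files, where they have 9 probes, among 24104 named genes on the array. The picking used the knockout over control ratio itself, so the ratios of these 6 genes are given as a description and no test is made on them. All 6 passed the filter on dim probes, by which a probe had to stand well above background in 3 or more of the 4 mice of either genotype. Of these, 3 (Inpp5j, Lrrc14b and Slc13a4) passed only through the knockout mice.

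Total RNA came from livers of 8 untreated male mice of mixed strain, all 2 months old. The 4 knockout mice carried a conditional deletion of NIPP1 in liver and the 4 others were labelled control. Which Cre line was used, in which cells it acts and whether the controls carried floxed alleles or Cre are not stated in the sources used here. Each of 4 two-colour arrays held RNA of 1 control and 1 knockout mouse, and knockout RNA was labelled with Cy3 on replicates 1 and 2 and with Cy5 on replicates 3 and 4. The labels name a different mouse in each channel, so each dye orientation holds other mice, and dye and mouse cannot be told apart within an array.

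NIPP1, the product of Ppp1r8, is a nuclear regulator of protein phosphatase 1. Neuropeptide B, encoded by Npb, is a secreted peptide that acts on the receptor NPBWR1. MAS1 is a G protein-coupled receptor that responds to a short angiotensin fragment and is counted to the protective arm of the renin-angiotensin system. INPP5J removes a phosphate from inositol phospholipids, the membrane lipids that PI3-kinase makes and Akt reads. SLC13A4 is a sodium-coupled sulphate transporter, and FKBP7 is a peptidyl-prolyl isomerase of the endoplasmic reticulum. LRRC14B is a leucine-rich repeat protein about which little is known.

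What the array saw of these genes is set by where the probes lie. Probes are 60 bases long. Of the 9, 2 Npb probes, both Mas1 probes and those of Lrrc14b and Slc13a4 hold the letters AATAAA of the polyadenylation signal. These letters are held by 12.6% of the 39429 probes with a sequence. The stretches of 30 bases around it are shown because these letters are what most of the probes have in common; a match is a description and not a mapped message end. Capitals mark AATAAA, and positions are on mm9 as in the array files.
Npb, chr11:120470348-120470407, plus strand: aatggctaaattAATAAAgaagcaaaactg
Mas1, chr17:13033943-13034002, minus strand: ttgtcaaagttcAATAAAtatccatctctc
Lrrc14b, chr13:74497030-74497089, minus strand: taatgaaatgctAATAAAataggagtgtgg
Slc13a4, chr6:35217971-35218030, minus strand: aatgtattaaactctaactgctcAATAAAt
The second Npb probe with these letters shares 53 of its 60 bases with the first, and the 2 Mas1 probes share 35, so they are not independent readings. The other Npb probe abuts the first at chr11:120470288-120470347 and shares no bases with it. The Inpp5j probe at chr11:3394386-3394445, on the minus strand, does not hold the letters.
The single Fkbp7 probe lies in the coding part of its message, and the array files place only 5 of its bases, at chr2:76501091-76501095 (minus strand); it is shown whole because the coordinates do not cover it.
Fkbp7: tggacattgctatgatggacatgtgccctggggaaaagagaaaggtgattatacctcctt

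On each array and in each dye, 52.7% to 56.3% of the 43020 spots that were not controls stood well above background, and no spot was saturated. The 4 arrays lay on 1 slide and came from 1 scan. Precision is limited by the number of arrays. Ppp1r8 checks the labels: its processed signal was 43.7 to 56.1 in the knockout mice and 120.0 to 134 in the control mice in the probe used for the fit, and the groups did not overlap. Which exons were deleted, and so whether the probe lies in them, is not stated in the sources used here. The log2 ratio of that probe was -0.68 ± 0.07 (SD, n = 4), with a limma adjusted p of 0.0589, which misses the threshold of 0.05. In the whole comparison 0% of 16314 tested genes were higher at an adjusted p of 0.05 in limma and 0% lower; 12.6% were higher and 10.1% lower at an unadjusted p of 0.05. A separate-channel fit in limma, which uses the signal of each mouse and keeps the array as a block, called 9.69% higher and 7.23% lower at an adjusted p of 0.05. The p-values and standard errors of the fit on 1 ratio per array rest on the spread between arrays of the same dye orientation. They leave out any difference between the orientations. Both fits rest on these 8 mice alone.

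Hepatocyte markers were well above background in all 8 mice (10 of 10), with summed processed signals of 961798 to 1138430 in knockout and 839615 to 1072780 in control mice. Of 8 biliary markers 0 passed an adjusted p of 0.05 in limma. At an unadjusted 0.05, where 12.6% of all tested genes were higher and 10.1% lower, 3 (Krt19, Tspan8 and Spp1) passed, all higher. In 4 of the 8 (those and Krt7) knockout signals were all above control signals, as in 4.59% of all tested genes, and in Epcam, Sox9, Cldn7 and Cftr the groups overlapped. The list summed to 960.2 to 1211 in knockout against 637 to 996 in control mice, ranges that overlap. Tspan8, a tetraspanin of epithelia, had a log2 ratio of 0.67 ± 0.05 (SE; limma adjusted p 0.0569) and Krt19, a keratin of bile ducts, 0.64 ± 0.08 (SE; limma adjusted p 0.0649). On replicates 1 to 4 Tspan8 had 0.31, 0.44, 0.97 and 0.96 and Krt19 0.14, 0.51, 0.99 and 0.90. Both were higher where the knockout was in Cy5, a difference that the SEs leave out. Sox9, a transcription factor of bile duct cells, had -0.21 ± 0.11, Epcam 0.09 ± 0.06, Cldn7 0.09 ± 0.08 and Cftr 0.01 ± 0.06 (SE). Of 8 endothelial markers 0 had a log2 ratio above 0, with a median of -0.11. They summed to 16817 to 19898 in knockout and 19457 to 20559 in control mice. Median log2 ratios were -0.03 for stellate cell and fibroblast, -0.06 for Kupffer cell and macrophage and -0.07 for lymphocyte and neutrophil markers. In each of these lists the sums overlapped between the genotypes. Pancreatic acinar markers summed to 53509 in the knockout mouse of replicate 1 and to 4080.4 to 11698 in the other 7 mice. Of 10 neuron and glia markers 4 (Tubb3, Nefl, Nefm and Gfap) were below background in all 8 mice, and of 12 skeletal and heart muscle markers 0 were above it in all 8. The part of other cell types in the results below was not tested, and in bulk RNA more cells of a type and more RNA per cell cannot be told apart.

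Signals are given per mouse as processed by the scanner software, which subtracted background and equalised the dyes. Ratios are log2 knockout over control after a background correction that adds 50 units to every signal and a loess normalization; they are drawn towards 0 where signals are dim. For that reason the ratio of the processed signals is given beside them. Errors of these ratios are SDs over the 4 arrays.

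Npb, the peptide gene, had processed signals of 2051, 1219, 1120.3 and 1393 in the knockout mice of replicates 1 to 4. The control mice of the same arrays had 496, 403, 358 and 325. Every knockout mouse lay above every control mouse, and the lowest knockout signal was more than double the highest control signal. The log2 ratio was 1.89, 1.46, 1.51 and 1.96 on replicates 1 to 4, with a mean of 1.70 ± 0.25 (SD, n = 4), a 3.26-fold difference. The processed signals gave 1.85 ± 0.26 (SD, n = 4). The overlapping second probe gave 1.83 ± 0.27 and the abutting probe 1.27 ± 0.24 (SD, n = 4). The overlapping probes differed by less than the spread over arrays, and the abutting probe lay below both by more than that spread. All 12 ratios were positive. The means of both dye orientations were close, 1.67 with the knockout in Cy3 and 1.73 with it in Cy5.

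Mas1, the receptor gene, had processed signals of 1008, 646, 1069 and 404 in knockout mice and of 121, 88.9, 134 and 176 in control mice on replicates 1 to 4. The groups did not overlap. The knockout mouse of replicate 4 was the lowest of its group and its control partner the highest of the controls. The log2 ratio was therefore uneven, with 2.37, 2.11 and 2.37 on replicates 1 to 3 and 0.96 on replicate 4, and a mean of 1.95 ± 0.67 (SD, n = 4). The processed signals gave 3.06, 2.86, 2.99 and 1.20, with a mean of 2.53 ± 0.89 (SD, n = 4), or 5.77-fold. The second probe, which shares 35 bases with the first, had 2.02, 1.55, 1.84 and 0.64. Knockout mice thus differed among themselves 2.64-fold in Mas1, against 1.98-fold among control mice.

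Fkbp7, the isomerase gene, was the steadiest of the 6. Its processed signals were 691, 467, 625 and 596 in knockout mice and 338, 226, 277 and 269 in control mice on replicates 1 to 4. The groups did not overlap, and the arrays with a high knockout signal also had a high control signal. The log2 ratio was 0.91, 0.86, 1.07 and 1.06, with a mean of 0.98 ± 0.11 (SD, n = 4), close to a doubling at 1.97-fold. The processed signals gave 1.10 ± 0.07 (SD, n = 4).

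**Figure D1:**
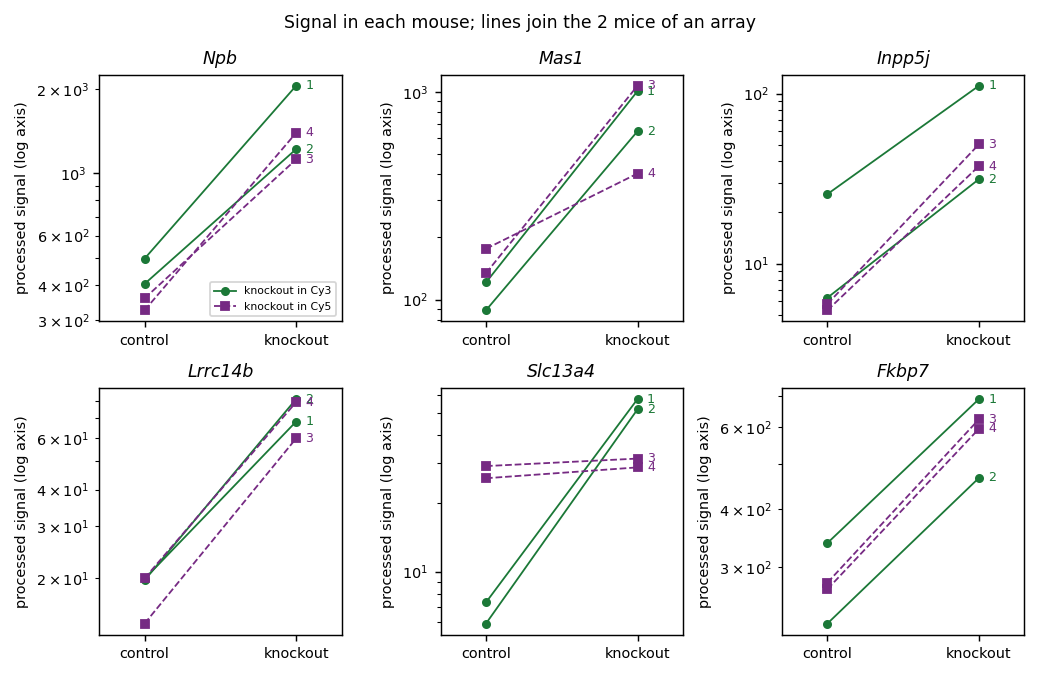
Processed signal (log axis, arbitrary intensity units) of the brightest probe of each gene in the control and knockout mouse of each array; lines join the mice of an array, numbers are replicates, circles are arrays with the knockout in Cy3 and squares those with it in Cy5. All lines rise, the Mas1 line of replicate 4 ends lowest at 404, and the Slc13a4 lines of replicates 3 and 4 are nearly flat (29.1 to 31.4 and 25.8 to 28.7).

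Lrrc14b and Inpp5j were dim, and their control levels are only partly measured. Lrrc14b had processed signals of 68.1, 81.2, 59.7 and 79.3 in knockout mice and of 19.9, 19.7, 14.0 and 19.97 in control mice on replicates 1 to 4. All 4 knockout signals and 2 of 4 control signals, those of replicates 1 and 2, were well above background. The groups did not overlap. The log2 ratio was 0.65, 0.84, 0.56 and 0.77, with a mean of 0.70 ± 0.13 (SD, n = 4), and 1.98 ± 0.14 with the processed signals (SD, n = 4), where 2 of the 4 control signals were not well above background. The 4 processed ratios lay between 1.78 and 2.09, so the arrays were alike on either scale while the size depended on the scale.

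Inpp5j, the phosphatase gene, had processed signals of 111, 31.4, 50.3 and 37.5 in knockout mice and of 25.6, 6.30, 5.79 and 5.32 in control mice on replicates 1 to 4. The groups did not overlap. Both mice of replicate 1 were the highest of their genotype, and its control mouse was the only one of the 4 with a signal well above background. On replicates 3 and 4 the scanner software had replaced the control signal by a surrogate, so no ratio of processed signals is a measured value there. The log2 ratio was 0.81, 0.45, 0.73 and 0.41, with a mean of 0.60 ± 0.20 (SD, n = 4), a 1.52-fold difference. On replicate 1, where both signals were well above background, the ratio of processed signals was 2.12; on the other arrays it rests on control signals not above background, and no mean or fold is given.

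Slc13a4, the sulphate transporter gene, was chosen as raised, yet its ratio was near 0 on 2 of the 4 arrays. Its log2 ratio was 0.61 and 0.78 where the knockout was in Cy3 (replicates 1 and 2) and 0.01 and 0.08 where it was in Cy5 (replicates 3 and 4), with a mean of 0.37 ± 0.38 (SD, n = 4). The processed signals showed the same split more widely, with 2.97 and 3.13 against 0.11 and 0.16; the first 2 values rest on control signals not well above background. Processed signals in knockout mice were 57.4, 51.8, 31.4 and 28.7 and in control mice 7.32, 5.91, 29.1 and 25.8 on replicates 1 to 4. The lowest knockout signal lay below the highest control signal, so the groups overlapped.

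The split of Slc13a4 follows the dyes. When mice were compared within a dye, across arrays, knockout signals were above control signals in both: in Cy3 57.4 and 51.8 against 29.1 and 25.8, and in Cy5 31.4 and 28.7 against 7.32 and 5.91. On the log2 scale these differences were 0.99 in Cy3 and 2.19 in Cy5. The raw mean signals lay in the same order, with 71.7 and 73.7 against 57.8 and 55.8 in Cy3 and 116.0 and 116.3 against 85.7 and 83.7 in Cy5. The control signal was well above background in Cy3 and was not in Cy5. The difference between orientations, Cy5 minus Cy3, was -0.65 in the log2 ratio, exceeded in size by 7.95% of tested genes, and -2.92 in the processed ratio, exceeded by 0.392%. Whether dye or mouse set this difference was not tested.

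**Figure D2:**
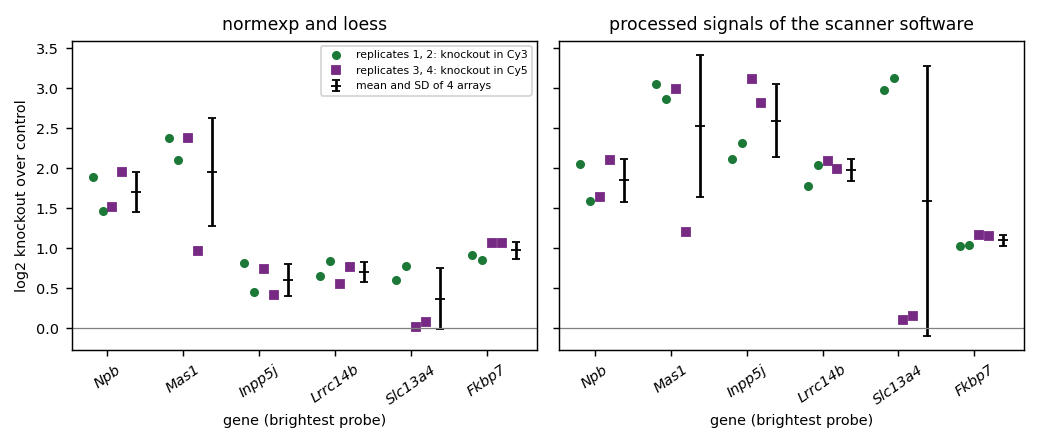
Log2 knockout over control of each gene's brightest probe on each array, after normexp background correction and loess (left) and from the processed signals (right); black bars are mean and SD of 4 arrays. Slc13a4 splits by dye orientation on both scales, Mas1 is low on replicate 4 only, and the dim genes Inpp5j, Lrrc14b and Slc13a4 reach higher values on the right, where part of their control signals were not well above background.

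Of the 6 genes, 5 had processed signals in knockout mice that were all above those in control mice, against 4.59% of all tested genes, and 6 had a positive ratio on all 4 arrays, against 13.3%. A ratio above 0.5 on all 4 arrays was found in 4 of the 6 and in 0.423% of all tested genes. Since these ratios chose the genes, nothing is read from those counts. Ranked by the lowest of the 4 ratios among 16314 tested genes, Npb was at 5, Mas1 at 15, Fkbp7 at 20, Lrrc14b at 52, Inpp5j at 101 and Slc13a4 at 1969. The ranks of Lrrc14b, Inpp5j and Slc13a4 rest in part on control signals not well above background. The SD over arrays was below the median of all tested genes (0.17) in Fkbp7 and Lrrc14b and above it in Npb, Inpp5j, Slc13a4 and Mas1.

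**Figure D3:**
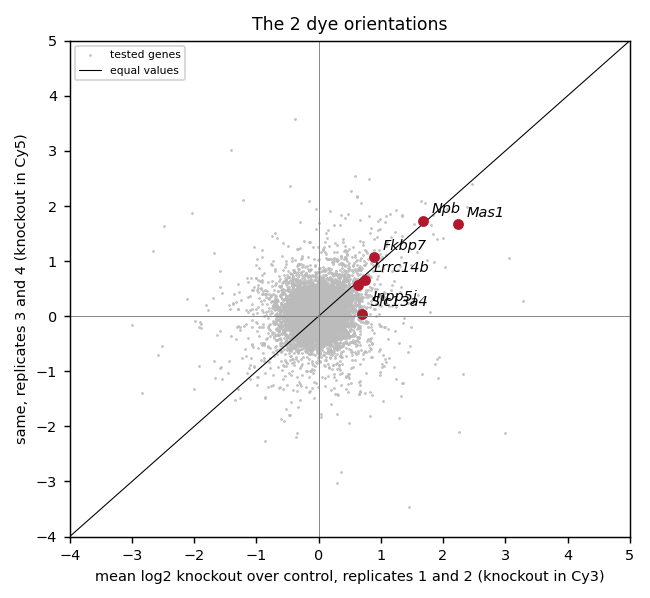
Mean log2 knockout over control on replicates 3 and 4 (knockout in Cy5) against replicates 1 and 2 (knockout in Cy3); grey points are tested genes, red points the 6 genes, and the black line marks equal values. Npb, Fkbp7, Lrrc14b and Inpp5j lie near the line, Mas1 lies below it at 2.24 and 1.67, and Slc13a4 at 0.69 and 0.05.

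Npw, the sister peptide gene, and Npbwr1, the receptor gene, were well above background in 0 of 8 mice, as were the prohormone convertase genes Pcsk1 and Pcsk2. Of 16 genes listed for the neuropeptide B/W system and peptide processing 8 could be tested, with a median log2 ratio of 0.04; 0 passed an adjusted p of 0.05 in limma, and at an unadjusted 0.05 there were 3 higher (Pcsk5, Pcsk6 and Pam) and 0 lower, where 12.6% and 10.1% of all tested genes were. Pcsk5, a proprotein convertase of many tissues, had 0.32 ± 0.07 (SE; limma adjusted p 0.121), with 0.29, 0.05, 0.35 and 0.60 on replicates 1 to 4, and its groups overlapped; in the separate-channel fit in limma its adjusted p was 0.0115. Pam, which amidates peptide hormones, had 0.18 ± 0.06 (SE; limma adjusted p 0.178), with 0.37 and 0.50 on replicates 1 and 2 and -0.15 and -0.002 on the others. The Pcsk5 relatives Pcsk6 and Pcsk7 had 0.24 ± 0.07 and 0.06 ± 0.05 (SE).

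In the renin-angiotensin list, which holds the enzymes that make and break the ligand of MAS1, 13 of 19 genes were tested, with a median of 0.06. In limma 0 passed an adjusted p of 0.05; at an unadjusted 0.05 there were 2 higher and 1 lower (12.6% and 10.1% of all tested genes). Mme encodes neprilysin, a membrane peptidase that can release the angiotensin fragment bound by MAS1. Its processed signals were 191, 203, 226 and 163 in knockout mice and 88.9, 68.6, 119.8 and 67.3 in control mice on replicates 1 to 4, without overlap. The log2 ratio was 0.67, 1.01, 0.63 and 0.78, with an estimate of 0.78 ± 0.08 (SE; limma adjusted p 0.0589). It missed the threshold here and passed it under 4 of 13 alternative settings, in which the adjusted p ran from 0.00293 to 0.249.

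Other genes of that system lay closer to 0. Ren1, which encodes renin, had 0.20 ± 0.04 (SE; limma adjusted p 0.116), with 0.17 to 0.22 on the 4 arrays. Agt, the precursor angiotensinogen made by hepatocytes, had 0.21 ± 0.08 (SE; limma adjusted p 0.237) and Prep, a peptidase, -0.09 ± 0.06 (SE; limma adjusted p 0.414). Agtr1a, the main hepatic angiotensin receptor gene, had 0.04 ± 0.11 (SE) and changed sign between arrays, from -0.60 on replicate 1 to 0.66 on replicate 4. The converting enzyme gene Ace was above background in 3 of 8 mice and was not tested. Among the Mas-related receptors 2 of 13 were tested, both below 0, with a median of -0.11.

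Phosphatases of inositol phospholipids, the family of Inpp5j, had a median of -0.06 over 23 of 24 genes tested, with 7 above 0. In limma 0 passed an adjusted p of 0.05; at an unadjusted 0.05, 2 were higher and 5 lower, where 12.6% and 10.1% of all tested genes were. Mtmr1, a myotubularin phosphatase, had -0.33 ± 0.05 (SE; limma adjusted p 0.0781), and ran from -0.60 and -0.56 on replicates 1 and 2 to -0.16 and -0.002 where the knockout was in Cy5; its knockout signals all lay below its control signals, as in 4.09% of all tested genes. Inpp5f had -0.25 ± 0.06 and Inpp5e, a phosphatase of cilia, 0.30 ± 0.08 (SE), both also with groups that did not overlap. Mtmr4 had 0.26 ± 0.11 (SE). The related phosphatase genes Inpp5k, Inpp5b and Inppl1 had -0.03 ± 0.08, -0.20 ± 0.05 and -0.05 ± 0.05 (SE), each with ratios of both signs.

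The PI3-kinase and Akt genes had a median of -0.08 over 18 of 21 tested, with 4 above 0. In limma 0 passed an adjusted p of 0.05, and at an unadjusted 0.05 there were 0 higher and 2 lower (12.6% and 10.1% of all tested genes). Rictor, a subunit of an mTOR complex, had -0.19 ± 0.08 (SE). Pdpk1, a kinase that activates Akt, had -0.15 ± 0.05 (SE) and Pik3r2, a regulatory subunit of PI3-kinase, -0.10 ± 0.05 (SE).

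Of 15 Slc13 and Slc26 transporter genes 9 were tested, with a median of 0.01; in limma 0 passed an adjusted p of 0.05, and at an unadjusted 0.05, 3 were higher and 1 lower (12.6% and 10.1% of all tested genes). Slc13a5, the citrate transporter of hepatocytes, had 0.01 ± 0.06 and Slc13a3 0.35 ± 0.11 (SE). Slc13a2 went from -1.28 on replicate 1 to 1.22 on replicate 4, with -0.08 ± 0.21 (SE), and its ratios had 1 sign per dye orientation. Slc26a6, an anion exchanger, had 0.37 ± 0.11 and Slc26a11 -0.34 ± 0.07 (SE; limma adjusted p 0.166 and 0.102). Slc26a4, or pendrin, named after its value was seen, had 1.003 ± 0.26 (SE; limma adjusted p 0.139), with -0.40 on replicate 1 and 1.09 to 1.77 on the others. Genes that activate and use sulphate had a median of 0.002 over 17 tested, and 0 passed an adjusted p of 0.05 in limma; 2 were higher and 0 lower at an unadjusted 0.05 (12.6% and 10.1% of all tested genes). Of these Arsb, a lysosomal sulphatase, had 0.16 ± 0.05 and Suox, sulphite oxidase, 0.13 ± 0.05 (SE).

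Of 14 other genes of the FKBP family, to which Fkbp7 belongs, 12 were tested, with a median of -0.002. In limma 0 passed an adjusted p of 0.05. At an unadjusted 0.05, 0 were higher and 0 lower (12.6% and 10.1% of all tested genes). Fkbp14, another isomerase of the endoplasmic reticulum, had 0.08 ± 0.12 (SE), with -0.35 on replicate 2 and 0.57 on replicate 3. Fkbp9 and Fkbp10 had 0.04 ± 0.05 and -0.005 ± 0.05 (SE). Genes for folding of collagen and secretory proteins had a median of -0.004 over 25 of 27 tested, 0 past an adjusted p of 0.05 in limma, and 0 higher and 3 lower at an unadjusted 0.05 (12.6% and 10.1% of all tested genes). Among them Canx, the chaperone calnexin, had -0.21 ± 0.06 (SE). Taken array by array, the median of these folding genes fell from 0.43 (replicate 1) through 0.07 (replicate 2) and -0.06 (replicate 3) to -0.43 (replicate 4). Acinar markers were high in the knockout mouse of replicate 1. They summed to 4195 in knockout and 11698 in control on replicate 2, and to 4080.4 and 5798 on replicate 4. Whether acinar cells had a part in the fall was not tested. Lrrc14, the named relative of Lrrc14b, had -0.13 ± 0.05 (SE), and with it 3 of 14 genes of the PRAME list were tested, all below 0.

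Over the 10 lists together 130 of 180 genes were tested. In limma 0 passed an adjusted p of 0.05; 12 were higher and 12 lower at an unadjusted 0.05, or 9.23% each, against 12.6% and 10.1% of all tested genes. The median log2 ratio of all tested genes was -0.00076.

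**Figure D4:**
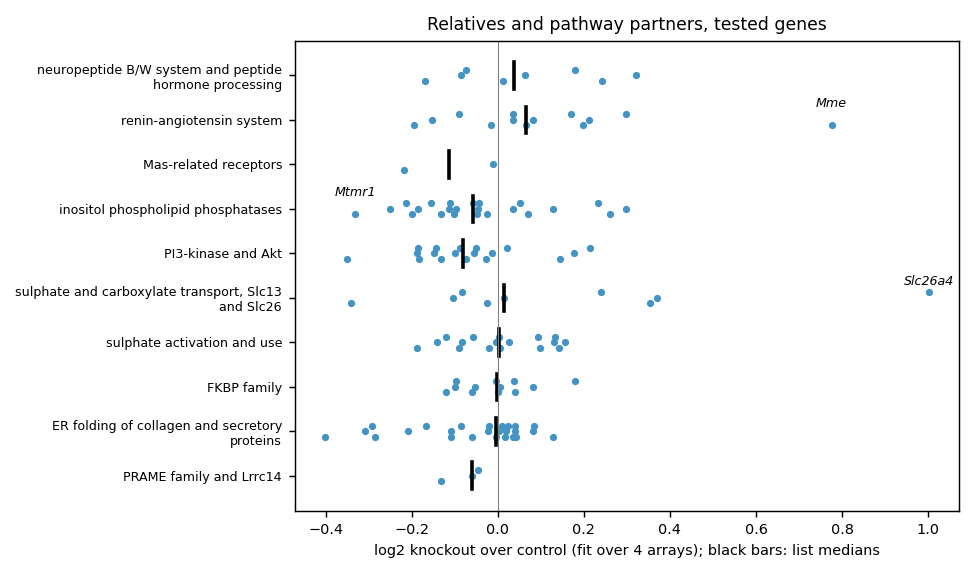
Fitted log2 knockout over control of the tested genes in each list of relatives and pathway partners; each point is a gene, black bars are list medians, and vertical offsets only separate points. Medians lie between -0.11 and 0.06; Mme at 0.78 and Slc26a4 at 1.003 stand farthest to the right.

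The nearest tested gene on either side of each of the 6, by distance between probe centres, showed a smaller ratio. Airn, a noncoding RNA gene of the imprinted Igf2r locus, lay 89.2 kb from Mas1 and had 0.61 ± 0.12 (SE; limma adjusted p 0.103), with 0.43, 0.91, 0.77 and 0.32 on replicates 1 to 4. Pnldc1, on the other side at 47.8 kb, had 0.04 ± 0.05 (SE). Npb lies between Anapc11, at 3.44 kb with -0.02 ± 0.05 (SE), and Pcyt2, at 1.05 kb with 0.19 ± 0.05 (SE; limma adjusted p 0.145). Ccdc127, 0.634 kb from Lrrc14b, had -0.12 ± 0.04 (SE), and Zfp72, on its other side, -0.10 ± 0.05 (SE). The neighbours of Slc13a4 were 1810058I24Rik (-0.23 ± 0.10) and Mtpn (0.17 ± 0.05), those of Inpp5j were Rnf185 (0.13 ± 0.06) and Selenom (0.05 ± 0.05), and those of Fkbp7 were Prkra (0.10 ± 0.05) and Plekha3 (0.06 ± 0.05), all with SE. Of these 12 neighbours 0 passed an adjusted p of 0.05 in limma. An unadjusted 0.05 was passed by 3 (Airn, Pcyt2 and Mtpn), all with a positive estimate, though Pcyt2 had ratios of both signs. At that threshold 12.6% of all tested genes were higher and 10.1% lower.

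Likeness over the 4 arrays was measured as the root mean square difference of log2 ratios, which is a description over 4 points of shared libraries. The genes nearest to Npb were Asns (0.37) and Clstn3 (0.38), and those nearest to Mas1 were Tpm2 (0.33) and Ifi27l2b (0.34). Tpm2, a tropomyosin gene, shared the low value on replicate 4, with 1.88, 1.72, 2.52 and 0.81. Inpp5j lay nearest to Slc25a10 (0.078) and Pex11c (0.088), and Lrrc14b nearest to Myom3 (0.079) and Mme (0.096). Slc13a4 lay nearest to Slc7a6os (0.094) and 1810055G02Rik (0.10), which also had their higher values on replicates 1 and 2. Fkbp7 lay nearest to Tmprss4 (0.13) and Col27a1 (0.14). All these genes were picked by closeness of these same ratios, so a shared pattern over the arrays follows from the picking.

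Promoters were looked up in RefSeq on GRCm38.p6, where 4 of the 6 genes had an entry (Mas1, Lrrc14b, Slc13a4 and Fkbp7). The 250 bases before the start were searched on both strands for 8 motifs. The letters CCAAT, the box of general promoter factors, are held by 33.8% of 32851 promoters. The letters GGGCGG, the GC box, are held by 32.7% and the letters TATAAA by 12.4%. The cyclic AMP element TGACGTCA (held by 1.55%), the E box CACGTG (6.02%), the STAT motif TTCNNNGAA (7.02%), the amino acid response motif TGATGNAAT (0.816%) and the nuclear receptor motif DR1 (0.0335%) had no match in any of the 4. No motif was shared by all 4 genes. Slc13a4 held CCAAT at 3 places and GGGCGG at 1, Mas1 held CCAAT at 1, Fkbp7 held GGGCGG at 1 and Lrrc14b held TATAAA at 1. The promoters also differed in CpG sites, with 15 in Fkbp7, 5 in Slc13a4 and 2 each in Mas1 and Lrrc14b, against a median of 6. The sequences of Lrrc14b and Slc13a4 are printed because together they hold a match of each of the 3 matched motifs; capitals mark the matches on either strand.
Lrrc14b, chr13:74364001-74364250, minus strand: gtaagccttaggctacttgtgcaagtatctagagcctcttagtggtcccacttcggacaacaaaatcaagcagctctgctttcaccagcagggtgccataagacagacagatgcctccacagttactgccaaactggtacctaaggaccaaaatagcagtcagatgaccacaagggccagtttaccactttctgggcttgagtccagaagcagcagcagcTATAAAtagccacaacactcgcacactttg
Slc13a4, chr6:35308127-35308376, minus strand: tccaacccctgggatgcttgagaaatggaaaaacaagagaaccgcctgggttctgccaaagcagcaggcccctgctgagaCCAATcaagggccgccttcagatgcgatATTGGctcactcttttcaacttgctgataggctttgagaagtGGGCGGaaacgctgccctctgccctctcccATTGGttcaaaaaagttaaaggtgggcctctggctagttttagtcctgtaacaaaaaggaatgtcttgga
A match is a run of letters and says nothing about binding.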

How the data were processed

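Liver RNA of 4 knockout and 4 control mice was hybridised in pairs to 4 two-colour arrays. Per the file headers, Agilent Feature Extraction 10.7.3.1 gave the deposited intensity values of each spot: mean signal, local background, and a processed intensity that is background-subtracted, detrended and dye-normalized. The deposited log10 ratios were not used. The deposited value table holds log2 ratios; all 43020 values per array equal, to a tolerance of 0.0001, the knockout over control log2 of the processed intensities, so scale and direction are known, with no centring added (column medians -0.05, 0.14, -0.18 and -0.18).

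Background was corrected with normexp (offset 50) in limma 3.58.1 under R 4.3.3. Fitted on all spots, its background means on replicate 1 were -273 (Cy3) and -185 (Cy5); it was therefore fitted on spots without a mark for non-uniformity (12 to 26 marked per array), which gave 4.07 to 5.76 and -13.7 to -12.2. Loess followed, with control spots at weight 0, and control and outlier-marked spots (194 to 230 per array) were left out. Dim probes were left out as the report states, and the probe with the highest average intensity stood for a gene, leaving 16314 genes and unnamed probes. Symbols were updated through RefSeq accessions (30708 spots matched). The limma fit had a dye intercept and a knockout effect signed by dye (n = 4 arrays), two-sided p-values and Benjamini-Hochberg adjustment over all genes, at a threshold of 0.05; its standard errors leave out any difference between dye orientations. On simulated ratios with planted changes, the check of this fit required only that mean estimates lie near the planted values. Its counts of calls are not given here.

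The 6 genes, the lists of relatives, the model and the naming rule were chosen with earlier results of these data known. The rule names the 6 genes, Ppp1r8, close relatives given by name, list genes past the threshold or else up to 4 per list with 1 sign on all arrays, the 2 most alike genes and the neighbour on either side. Alternatives were other background corrections and normalizations, no filter, no dye term, the mean of the probes of a gene, trend and robust estimation, a separate-channel fit and leaving out each array. Figures were drawn with matplotlib 3.10.9.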

Additional observations from a re-analysis of the deposited data

Results flagged for a closer look

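In 44 groups of 4 values (ratios and signals of each probe of the 6 genes and Ppp1r8), 3 held a value whose gap to the others, divided by the range of the 4, was above the 95% limit of Dixon's test; chance gives about 1 in 20. The control signal of Inpp5j was 25.6 on replicate 1 and 5.32 to 6.30 on the others (gap over range 0.952). The control signal of Lrrc14b was 14.0 on replicate 3 and 19.7 to 19.97 on the others (0.951). The processed log2 ratio of the brighter Mas1 probe was 1.20 on replicate 4 and 2.86 to 3.06 on the others (0.894).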

How the results depend on the processing

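All 6 genes kept a positive mean ratio under the 13 alternatives. With the processed signals the log2 ratio moved by more than the SD over arrays to 1.10 in Fkbp7, 2.59 in Inpp5j, 1.98 in Lrrc14b and 1.59 in Slc13a4, and with normexp fitted on all spots to 0.58 in Lrrc14b; processed signals carry no added offset, and those of Inpp5j, Lrrc14b and Slc13a4 rest in part on control signals not well above background (for Inpp5j 2 of 4 are surrogates). Leaving out 1 array gave 0.96 to 0.99 for Fkbp7, 0.51 to 0.69 for Inpp5j, 0.65 to 0.76 for Lrrc14b, 1.60 to 2.31 for Mas1, 1.59 to 1.81 for Npb, 0.33 to 0.41 for Slc13a4 and -0.71 to -0.64 for Ppp1r8. Ppp1r8 passed 0.05 in limma with median centring (-0.68, adjusted p 0.0463), no filter (-0.68, 0.0381), trend and robust (-0.68, 0.0284) and the separate-channel fit with the array as a replicate block (-0.68, 0.000921). Genes higher and lower at 0.05 numbered 0 and 0 with the settings of the report, 5 and 3 with processed signals, 19 and 10 without background correction, 160 and 47 with median centring, 171 and 86 with no filter, 6 and 4 with no dye term, 253 and 129 with trend and robust, and 1580 and 1178 in the separate-channel fit with the replicate block; without 1 array they were 0 to 0. Of the list genes 1 was higher (Mme) with median centring, with no filter and with trend and robust. With the replicate block 6 list genes were higher and 9 lower, where 9.69% and 7.23% of all tested genes were. With the settings of the report the list counts were 0 and 0, and without 1 array 0 to 0. The causes were not tested. Dim control signals of Inpp5j, Lrrc14b and Slc13a4 limit the size of their folds.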
